A study of Mus musculus with 6 samples.

Results

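Alternative starts spanning up to 10 kb are pairs of nearby first-exon forms of a mouse gene, and they were taken from a splicing array of brain RNA. The events listed as alternative starts, with a position of 10000 bases or fewer from end to end, were counted by distinct event name. There were 963 such events in 943 genes, which made up 42.6% of the 2263 alternative starts and 7.41% of the 13002 events on the array. Intensities were given for 952 of them, in 933 genes, and the other 11 could not be analysed. The choice used only the type and the length of an event and none of its measured values.

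Whole brain RNA came from 6 mice of the B6.CAST congenic line, 3 homozygous for the Nxf1-B6 allele and 3 for the Nxf1-CAST allele of the mRNA export factor Nxf1, with 1 array per animal. The animals formed 3 same-sex littermate pairs of opposite genotype. Both females of pair 1 were 46 days old and both females of pair 3 were 23 days old. Pair 2 was male, with an Nxf1-B6 animal of 22 and an Nxf1-CAST animal of 23 days. All shared a C57BL/6J background, and the CAST/EiJ segment around Nxf1 on chromosome 19 holds many other genes, so that effects of Nxf1 and of its neighbours cannot be told apart. The Affymetrix MJAY arrays carry probes for the exons and junctions of alternative forms. The deposited table gives each event an exclusion and an inclusion intensity, each 1 value for a set A and 1 for a set B of arrays.

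The sets are not named by genotype. Set B was likely Nxf1-CAST, since the table's header puts the mutants over the controls and the Methods put Nxf1-CAST over Nxf1-B6, and every difference here is given as set B over set A. There is no value per animal, so the spread between animals and the overlap of the groups are unknown and no test over animals could be made. The study's text and table header do not write the ratio the same way round, as inclusion over exclusion or the reverse, so the values here were computed from the named intensity columns. The change of an event is the log2 of the exclusion over inclusion ratio in set B, minus the same in set A. An event was past the fold when this exceeded 0.5 in either direction, a 1.41-fold difference of the ratios. The table does not say whether the exclusion path is the upstream or the downstream start.

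A gene with more than 1 start can be transcribed from promoters with different DNA sequence and different factors, and the transcripts then differ in their first exon. The 5' leader, the translation start and sometimes the end of the protein can change with it, and brain genes often use such starts in different cell types. Nearby starts may lie in the same CG-rich promoter or in separate ones. Nxf1 carries spliced mRNA out of the nucleus, after the start has been chosen.

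The start sequences are shown here for 5 genes whose events had among the 10 highest or 10 lowest changes, taken without events that had an intensity below 102. These genes were chosen because RefSeq lists exactly 2 starts for each, at least 300 bases apart and no farther apart than the event is long. The sequences show the annotated starts of these genes. Each run covers 100 bases before to 20 bases from the start, 5' to 3' on the strand of the gene, in build GRCm38.p6, with every CG dinucleotide in capitals. The starts of Golga7b, which encodes a golgin-family partner of palmitoyltransferases, lie 8161 bases apart, at chr19:42247478-42247597 and chr19:42255639-42255758 on the plus strand.
Golga7b upstream start: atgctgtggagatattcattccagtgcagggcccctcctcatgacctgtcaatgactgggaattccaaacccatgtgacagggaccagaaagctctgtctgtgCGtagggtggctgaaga
Golga7b downstream start: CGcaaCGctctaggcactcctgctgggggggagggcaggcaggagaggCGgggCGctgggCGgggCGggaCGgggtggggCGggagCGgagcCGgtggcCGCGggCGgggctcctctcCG
The starts of Rnf181, a RING-type ubiquitin ligase gene, lie 4540 bases apart on the minus strand, at chr6:72366953-72367072 and chr6:72362413-72362532.
Rnf181 upstream start: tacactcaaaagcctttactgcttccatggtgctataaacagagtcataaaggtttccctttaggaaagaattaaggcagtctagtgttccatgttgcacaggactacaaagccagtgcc
Rnf181 downstream start: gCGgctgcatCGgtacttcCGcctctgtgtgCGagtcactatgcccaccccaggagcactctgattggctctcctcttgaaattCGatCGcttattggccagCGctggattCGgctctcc
The starts of the protein kinase gene Dyrk1b lie 833 bases apart, at chr7:28179383-28179502 and chr7:28180216-28180335 on the plus strand.
Dyrk1b upstream start: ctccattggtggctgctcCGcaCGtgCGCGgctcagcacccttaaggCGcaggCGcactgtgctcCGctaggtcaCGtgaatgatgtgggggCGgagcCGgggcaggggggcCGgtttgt
Dyrk1b downstream start: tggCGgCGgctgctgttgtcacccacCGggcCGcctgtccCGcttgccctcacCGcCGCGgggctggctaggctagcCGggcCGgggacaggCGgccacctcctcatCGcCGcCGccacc
The starts of Gng13, a G protein gamma subunit gene, lie 356 bases apart, at chr17:25717072-25717191 and chr17:25717428-25717547 on the plus strand.
Gng13 upstream start: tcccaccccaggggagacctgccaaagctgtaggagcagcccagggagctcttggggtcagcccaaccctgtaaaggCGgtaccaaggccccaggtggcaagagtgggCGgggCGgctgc
Gng13 downstream start: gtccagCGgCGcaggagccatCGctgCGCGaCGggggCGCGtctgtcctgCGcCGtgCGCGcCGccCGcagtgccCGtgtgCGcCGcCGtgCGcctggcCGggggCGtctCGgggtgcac
The starts of Def8 lie 303 bases apart, at chr8:123442856-123442975 and chr8:123443159-123443278 on the plus strand.
Def8 upstream start: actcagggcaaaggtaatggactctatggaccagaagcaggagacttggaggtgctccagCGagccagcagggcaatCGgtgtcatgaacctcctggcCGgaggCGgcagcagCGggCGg
Def8 downstream start: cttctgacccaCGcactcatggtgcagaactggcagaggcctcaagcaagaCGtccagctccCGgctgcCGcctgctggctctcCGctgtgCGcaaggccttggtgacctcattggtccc

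In all 5 pairs the downstream start was the richer in CG dinucleotides when a window of 300 bases was counted. The shorter printed runs of Def8 held 6 CG each. Over the 300 bases from 250 before to 50 after the start, Golga7b held 4 upstream and 23 downstream, Rnf181 2 and 15, Dyrk1b 17 and 31, Gng13 6 and 34, and Def8 13 and 19. The upstream window of Rnf181 held TATAAA and its downstream window CCAAT. The downstream window of Golga7b held GGGCGG and the upstream one CCAAT. Whether these RefSeq starts are the ones that the array probes separate is not stated, since the array positions follow another genome build.

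The order seen in those 5 genes was not general. Of the 952 events, 407 had a pair of RefSeq starts on the same strand no farther apart than their own span, and for 299 the pair was at least 300 bases apart, with a median separation of 1000 bases. The downstream start held more CG in 147 of them, the upstream start in 141, and 11 were equal, with a median of 15 on either side. TATAAA was found at 26 upstream and 16 downstream starts, and GGGCGG at 173 upstream and 157 downstream starts. Of the 299 events, 20 (6.69%) were past the fold.

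**Figure D1:**
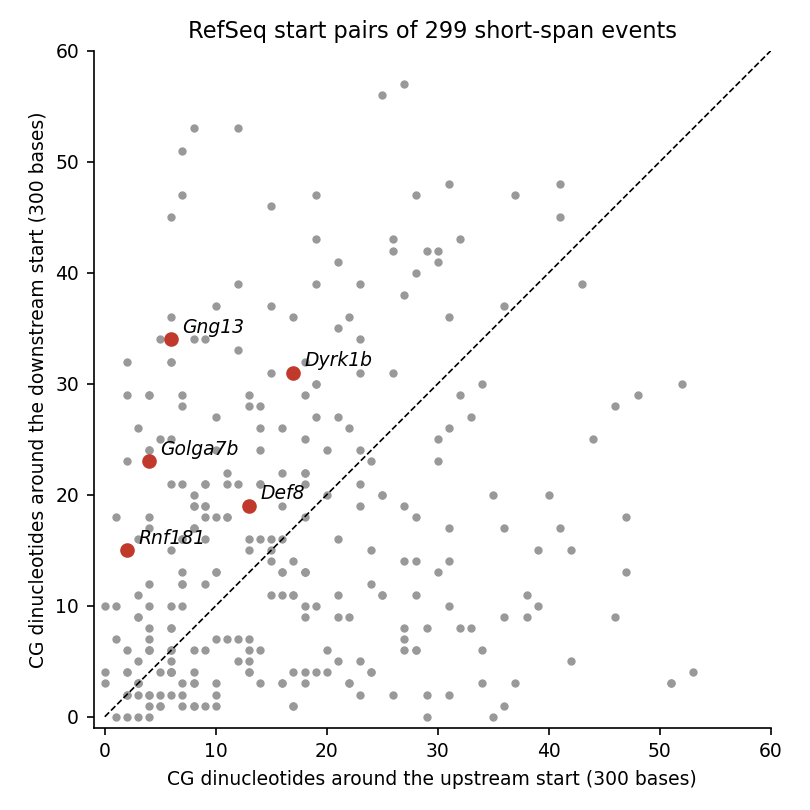
Number of CG dinucleotides in the 300 bases around the upstream start (x axis) and the downstream start (y axis) of 299 events with RefSeq starts at least 300 bases apart, 1 point per event, with equality dashed and the 5 printed genes in red. The red points all lie above the dashed line, while 147 of all points lie above it and 141 below.

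RefSeq promoters were found by symbol or older symbol for 727 of the 933 genes (77.9%). That is under 80%, so that base composition was not checked against the changes, and the shares that follow describe the matched genes alone. More than 1 start was listed for 59.6% of the matched genes, against 54.3% of the genes with alternative starts over 10000 bases and 30.5% of the genes of all events. The 1340 starts of the matched genes held a median of 17 CG, against 14 for the distant starts, 18 for the genes of all events and 7 for all 32851 promoters of the reference. Searched on both strands, the GC box GGGCGG was in 56.2% of these starts and 35.7% of all promoters, CCAAT in 35.7% and 37.4%, and TATAAA in 7.31% and 13.6%. The E-box CACGTG was in 9.03% against 7.15% of all promoters, the cAMP response element TGACGTCA in 2.39% against 1.79%, and the NRF1 palindrome in 1.42% against 0.971%. For the genes of all events the shares were 57.5% for GGGCGG, 36.5% for CCAAT and 7.51% for TATAAA, and 9.12% for CACGTG, 2.81% for TGACGTCA and 1.8% for the NRF1 palindrome, each above the share of the short-span starts. None of these motifs contains another, and a match is a run of letters and not a bound site.

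The labelled tissue was checked by its markers. The neuronal genes Snap25, Stmn2 and Syt1 reached intensities between 6172 and 12087 on their brightest path, and all 5 astrocyte markers were listed, up to 10330. Of the other lists, 3 of 5 oligodendrocyte markers reached 1376 to 11314, 2 of 4 microglial markers 258 to 459, the endothelial Pecam1 405 and the muscle marker Acta1 353, beside a median of 296 over all intensities. The muscle marker thus lay within the range of the microglial ones. No liver marker was listed, but a gene is listed only where the array has an event for it. Its absence therefore says nothing about its expression. Short-span starts had intensities from 56 to 8835 with a median of 287.5, and in 194 of the 952 events (20.4%) at least 1 intensity was below 102, the 10th percentile of the table.

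Few short-span starts were past the fold. Past the fold were 57 of 952 events (5.99%, 95% Clopper-Pearson interval 4.57 to 7.69%, for counting over events only), against 7.34% of all 12948 events with values. The share was 6.56% for alternative starts spanning more than 10000 bases, 3.59% for alternative ends spanning 10000 bases or fewer, 2.24% for longer alternative ends and 9.02% for all other event types. The median absolute change was 0.17 on the log2 scale (95% interval 0.16 to 0.19), against 0.18 over all events, 0.15 for distant starts and 0.14 for short ends. A single short-span start, that of Rnf11, differed by more than 1 on the log2 scale. Without the dim events, 46 of 758 (6.07%) were past the fold, against 6.42% of all such events.

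Exclusion was relatively higher in set B in 34 of the 57 events past the fold and lower in 23. These were 3.57% and 2.42% of the short-span starts, beside 4.52% and 2.72% of all events with an exclusion path. Exclusion has no common meaning across event types, so the directions in these shares cannot be compared. The split of the 57 events was not stable. Centring each path role on its median over the table, a shift of 0.03, gave 23 higher and 34 lower. Over all 952 events, 491 changes were above 0 and 461 below.

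The share past the fold was highest among the closest starts, though within the counting error. Of the events spanning up to 1000 bases, 17 of 222 (7.66%) were past the fold, with a median absolute change of 0.20. The shares were 17 of 300 (5.67%) above 1000 and up to 3000 bases, with a median of 0.18, and 23 of 430 (5.35%) above 3000 bases, with a median of 0.16. The 95% intervals of these shares, 4.52 to 12.0%, 3.34 to 8.92% and 3.42 to 7.92%, overlapped. Spans ran from 121 to 9938 bases with a median of 2612. Just inside the limit lay Gsg1 at 9938, uc007lyw-1 at 9936 and Abp1 at 9935 bases, with changes of 0.12, 0.05 and -0.32. Just outside it lay H2-DMb1 at 10018, Uba1 at 10029 and Cast at 10043 bases, with changes of 0.05, -0.30 and -0.27.

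**Figure D2:**
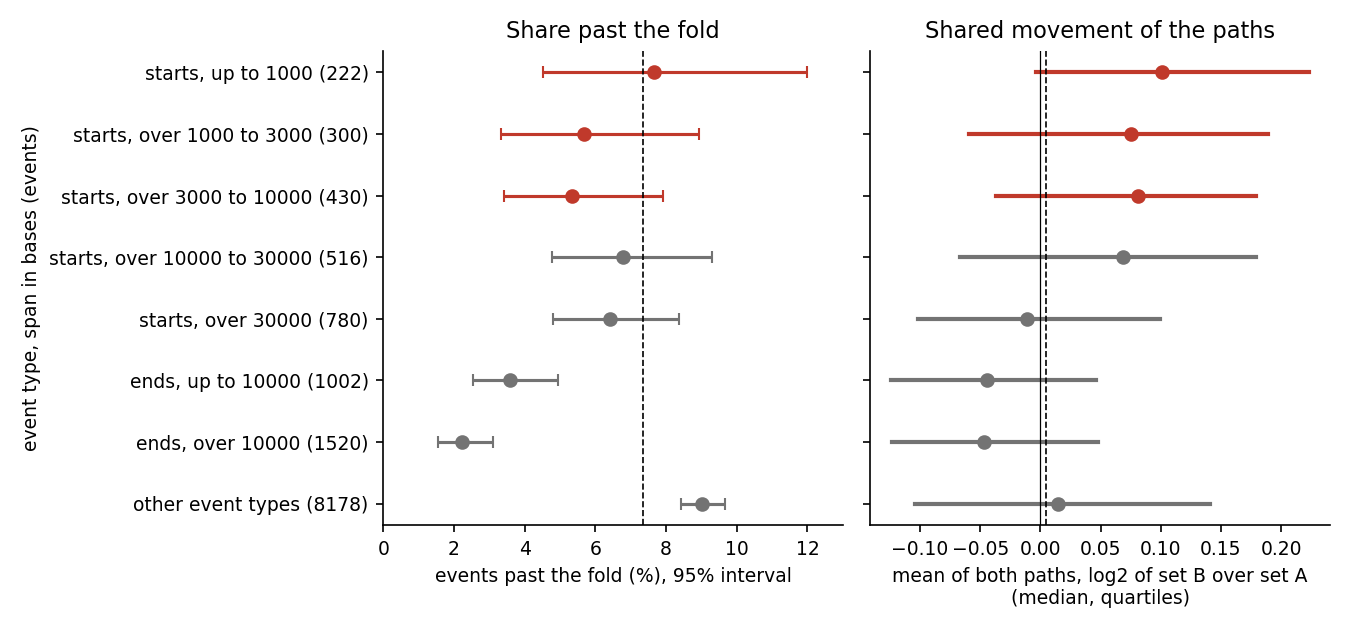
Left, percent of events past the fold by type and span, with 95% Clopper-Pearson intervals over events, and the 7.34% of all events dashed. Right, mean of the log2 set B over set A values of both paths of an event, as median (point) and quartiles (line), with the median of all events dashed. The 3 red rows are the short-span starts, whose medians on the right, from 0.075 to 0.101, lie above those of all other types drawn, the next being 0.069 for starts of over 10000 and up to 30000 bases.

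The largest change belonged to Rnf11, which encodes a RING-finger ubiquitin ligase adaptor. Its start event covers 723 bases of the minus strand of chromosome 4, at 109148866 to 109149588 in the positions of the table. Exclusion stood at 746 for set A against 403 for set B, and inclusion at 108 against 131. The exclusion form was lower and the inclusion form higher in set B, and the change was -1.17 on the log2 scale. It ranked first among the short-span starts and at place 12 of all events.

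Relatively less exclusion in set B was also measured in other named genes. For Golga7b, the gene with the starts 8161 bases apart, exclusion was 990 for set A and 659 for set B, and inclusion 174 and 187, so that most of its change of -0.69 lay in the exclusion form. Kcnab3, a beta subunit of voltage-gated potassium channels, had the same pattern, with exclusion of 347 and 242, inclusion of 155 and 168 and a change of -0.64. In the T-cell adaptor gene Lime1 the inclusion form differed more. Inclusion was 114 for set A and 163 for set B, exclusion 546 and 476, and the change -0.71.

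Both forms moved in opposite directions in several of these genes. Phka2, the liver-type regulatory alpha subunit of phosphorylase kinase, had exclusion of 382 and 303 and inclusion of 206 and 259, a change of -0.66. Syt17, a synaptotagmin-family gene, had exclusion of 543 and 415 and inclusion of 172 and 207, a change of -0.66. Ikbkg, the NF-kappaB regulator NEMO, had exclusion of 313 and 266 and inclusion of 216 and 282, a change of -0.62. These 3 events span 582, 5084 and 8194 bases. The zinc finger gene Plagl2 had exclusion of 163 and 139 and inclusion of 528 and 664, a change of -0.56. The remaining events among the 10 lowest, taken without dim events, were 4930481F22Rik and Rnf181. They had changes of -0.59 and -0.56, with inclusion of 114 and 150 in the first and 125 and 163 in the other.

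Among events that were not dim, relatively more exclusion in set B was largest in Dcn, the gene of the matrix proteoglycan decorin. Inclusion was 761 for set A and 521 for set B, and exclusion 107 and 125, just above the dim level, for a change of 0.77. Ciz1, a zinc finger gene with a role in DNA replication, has a start event of only 239 bases. Its exclusion was 153 and 202 and its inclusion 606 and 490, a change of 0.71. In Def8 the difference lay in the inclusion form, at 959 and 634 beside an exclusion of 193 and 206, a change of 0.69.

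The rest of the 10 highest among events that were not dim follow. Shank3, a postsynaptic scaffold gene with known internal promoters, had exclusion of 428 and 504 and inclusion of 788 and 613, a change of 0.60. Mtap1a, a microtubule-associated protein gene, had exclusion of 406 and 506 and inclusion of 1313 and 1084, a change of 0.59. Gng13, the brightest of these events, had exclusion of 1328 and 1707 and inclusion of 1039 and 901, a change of 0.57. In all 3 the exclusion form was higher and the inclusion form lower in set B. Dyrk1b had exclusion of 863 and 971 and inclusion of 803 and 597, a change of 0.60. Plekhg4, a guanine nucleotide exchange factor gene, reached 0.60 at intensities of 129 to 232. The unnamed genes 6030419C18Rik and uc007uop-1 had changes of 0.64 and 0.62, mostly through an inclusion that was 359 and 258 in the first and 247 and 180 in the other.

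**Figure D3:**
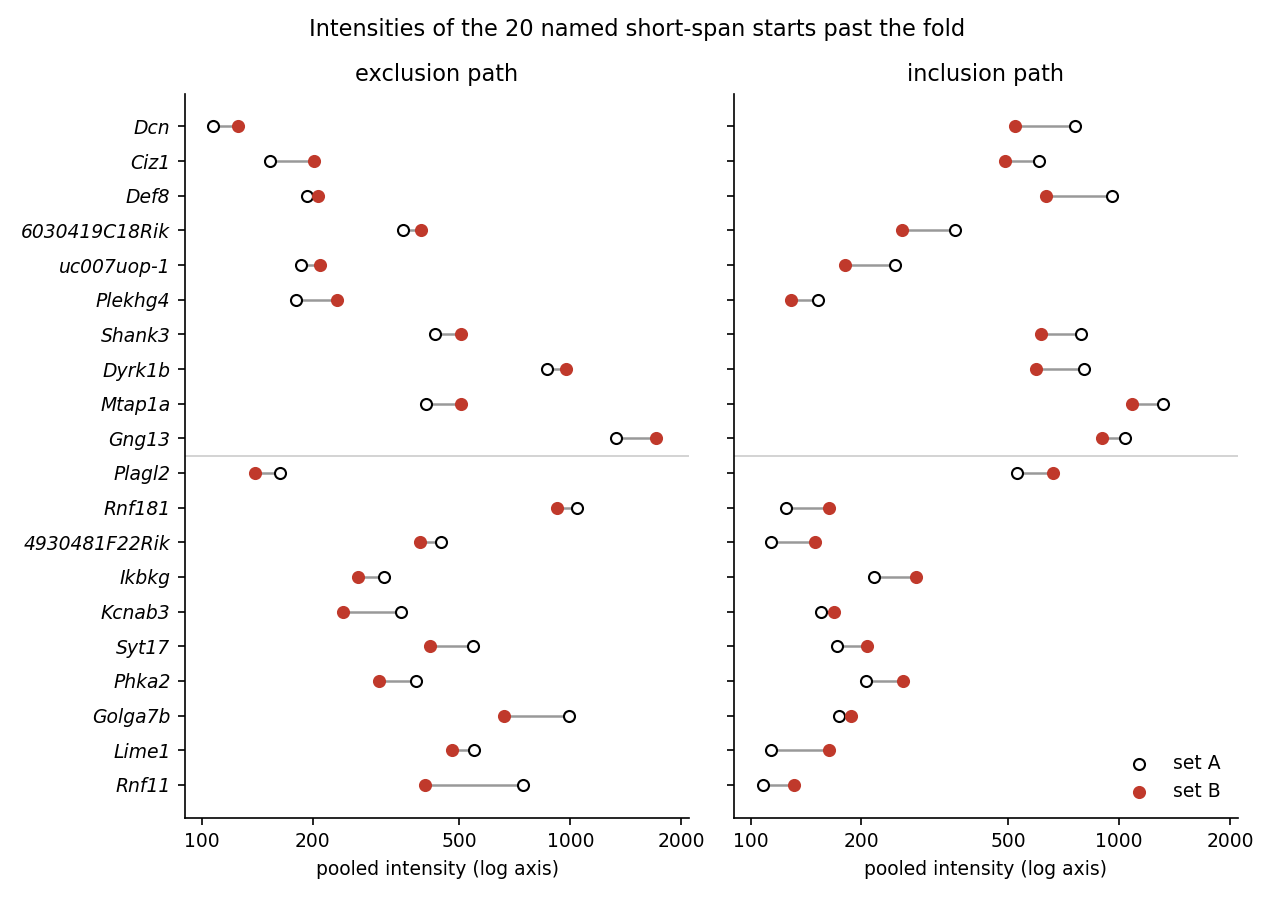
Pooled exclusion (left) and inclusion (right) intensity on a log axis in set A (open) and set B (red) for the 10 events with the highest changes (above the grey line) and the 10 with the lowest (below it), with no error bars because the table holds no value per animal. In all 10 upper events exclusion was higher and inclusion lower in set B, and in all 10 lower events the reverse, with Rnf11 showing the longest shift, from 746 to 403.

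The 3 largest changes among dim events were 0.86 in 4921515J06Rik, 0.72 in the mesothelin gene Msln and 0.69 in the protease inhibitor gene Spink10. Their lowest intensities were 67, 73 and 89. For 4921515J06Rik the exclusion was 67 for set A and 126 for set B, while the inclusion stayed at 429 and 443. Of the 57 events past the fold, 11 had an intensity below 102.

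Opposite movement of the forms was uncommon. With a movement counted from 0.2 on the log2 scale, a 1.15-fold difference between the sets, both forms moved in opposite directions in 32 of 952 events (3.36%), against 2.88% of all events with an exclusion path. In 442 events (46.4%) only 1 form moved, and in 350 (36.8%) neither did. Of the 57 events past the fold, 27 (47.4%) had opposite movements, 28 (49.1%) a movement of 1 form and 2 (3.51%) a shared movement. Over all events past the fold with an exclusion path these shares were 33.3%, 63.9% and 2.75%. The 5 largest opposite movements, by the smaller of both, were those of Phka2, Ciz1, Bmi1, Rnf11 and Glt8d1. Bmi1, a Polycomb group gene, had exclusion of 89 and 109 and inclusion of 671 and 528, and Glt8d1, a glycosyltransferase gene, had exclusion of 745 and 903 and inclusion of 76 and 62.

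Both forms of short-span starts tended to be higher in set B, a pattern that was noticed in the data and not set out in advance. The median log2 ratio of set B over set A was 0.09 for the exclusion and 0.09 for the inclusion intensity, and 66.0% and 63.0% of the events were above 0. For all events these medians were 0.02 and -0.02. For distant starts they were 0.021 and 0.002, and for short alternative ends -0.03 and -0.06. The mean of both forms was higher by a median of 0.08 (quartiles -0.037 and 0.195), and it was 0.101, 0.075 and 0.081 in the 3 classes of span from the closest, 0.069 for starts of over 10000 and up to 30000 bases and -0.011 for starts over 30000 bases.

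The shift was also compared within genes. In 169 genes with a short-span start and an alternative end, the starts had a median of 0.08 and the ends of -0.04, and the starts were higher in 116 (68.6%). Against cassette exons of the same gene the medians were 0.074 and 0.027, and the starts were higher in 127 of 230 genes (55.2%). Against distant starts they were 0.066 and 0.003, and the short-span starts were higher in 23 of 39 genes (59.0%). The median difference within a gene was 0.091 for ends, 0.021 for cassette exons and 0.036 for distant starts. Brightness moved with it: the median was 0.10 in the 243 events with the lowest intensities and 0.04 in the 237 with the highest, and the part of brightness in the shift was not tested. The single listed muscle marker, Acta1, had a mean of 0.17 over its paths, and the neuronal markers a median of -0.06. The other marker lists had -0.003 (astrocyte), -0.047 (oligodendrocyte), -0.022 (microglia) and -0.035 (endothelial).

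Among the 128 events (13.4%) in which both forms moved the same way, 103 (80.5%) were higher in set B and 25 lower. The share that was higher was 76.5% (75 of 98) for distant starts and 60.2% (699 of 1162) for all events. The share moving the same way was 9.26% over all events with an exclusion path. The 10 events that follow were chosen by size after their values were seen. Highest were 2810012G03Rik, with exclusion of 301 and 545 and inclusion of 724 and 969, and Nfkb2, an NF-kappaB subunit gene, with 219 and 326 and with 142 and 211. Pkn3, a protein kinase gene, Prx, the gene of the Schwann cell protein periaxin, and the integrin gene Itga3 followed, with mean log2 ratios of 0.54, 0.51 and 0.48. Lowest was Nlgn2, which encodes the adhesion protein neuroligin 2 of inhibitory synapses, with exclusion of 349 and 246 and inclusion of 3414 and 2337. Trp53inp2, Ugcgl2, Dmwd and Rpsa, the gene of a small ribosomal subunit protein, followed, with means of -0.47, -0.46, -0.46 and -0.44. Nfkb2 and Nlgn2 had changes of 0.003 and 0.042, since their forms moved almost equally.

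**Figure D4:**
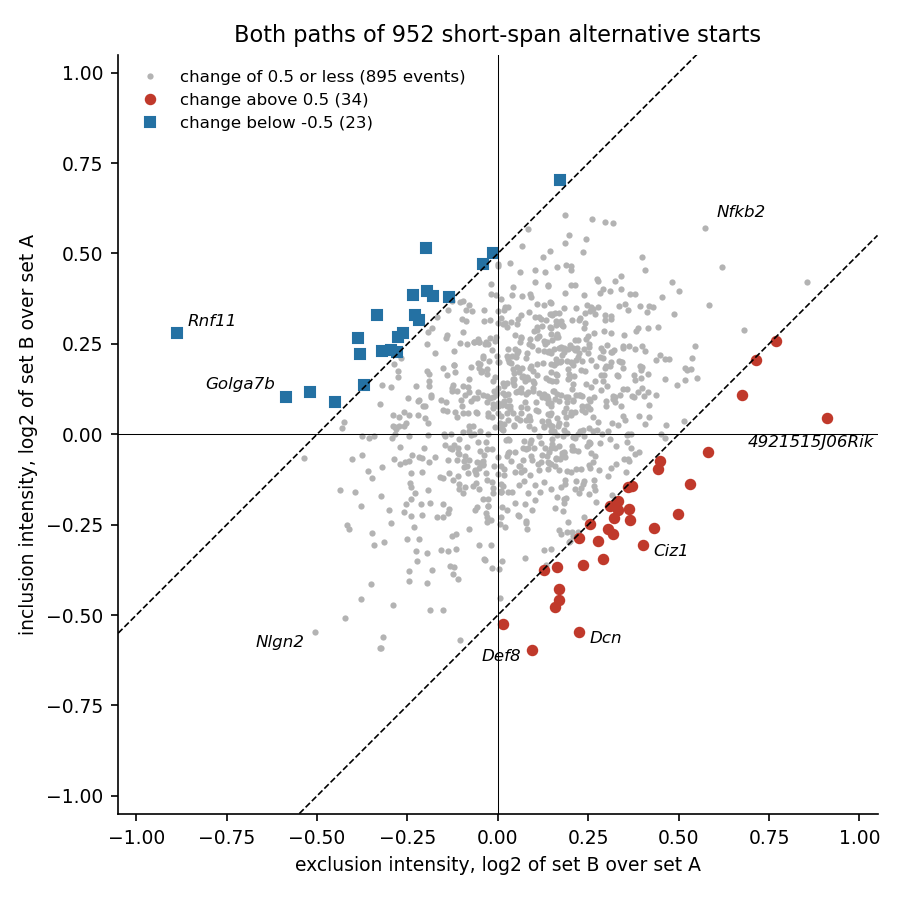
Log2 of set B over set A of the exclusion intensity (x axis) and of the inclusion intensity (y axis) for 952 short-span starts, 1 point per event, with dashed lines at a change of 0.5 and -0.5. Red circles are the 34 events with relatively more exclusion in set B, blue squares the 23 with less, and the grey cloud lies above and to the right of the origin, with medians of 0.09 on both axes.

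No short-span start inside the congenic interval was past the fold. The interval was taken as chr19:7053631-11866235 in the positions of the table, between the outermost events of genes that the study places in it, and held 7 short-span starts in 6 genes. Of all 70 events there, 6 (8.57%) were past the fold. Bscl2, which encodes the lipid droplet protein seipin, came closest, with exclusion of 308 for set A and 359 for set B and inclusion of 743 and 616, a change of 0.49. Its other start event, next to the first, had exclusion of 685 and 726, inclusion of 189 and 169 and a change of 0.25. Slc3a2, the heavy chain of amino acid transporters, had a change of -0.29 and the SNARE gene Stx5a of -0.23. Taf6l, of histone acetyltransferase complexes, stood at -0.16, the ciliary gene Tmem216 at 0.12 and 2700081O15Rik at 0.02. For its own called sites in the CAST/EiJ segment, the paper gives probe mismatch or intrinsic allelic differences as the likely source. Whether either applies to these values was not tested. These bounds are the least extent of the interval, and where it ends beyond them is not resolved here. Gpr137, whose events lie 36691 and 38234 bases below the lower bound, had changes of 0.57 and -0.13 at its start events.

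Mrpl24, a gene of the mitochondrial ribosome whose event the study also assayed on gels, had exclusion of 76 and 62 and inclusion of 450 and 447, a change of -0.28. Its exclusion was below the dim level in both sets. The paper reports no nominally significant difference between Nxf1 alleles in its gel assays of unlinked splice sites without a retroviral insertion. Among genes in which the study assayed an intronic IAP, a retroviral insertion, 2 had a short-span start. Srpk2, a kinase of splicing factors, had exclusion of 249 and 279 and inclusion of 527 and 409, a change of 0.53. The malic enzyme gene Me3 had exclusion of 198 and 217 and inclusion of 506 and 394, a change of 0.49. Both had a lower inclusion form in set B. Among events of all types in the genes with an assayed IAP, 4 of 47 (8.51%) were past the fold, beside 7.34% of all events. Whether the start events of Srpk2 and Me3 lie at the assayed insertion was not tested, so their values are not a measure of its effect.

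By function, 9 of the 151 short-span starts that fell in any gene list were past the fold, beside the 7.34% of all events, and median absolute changes are set beside the 0.18 of all events. Among 13 starts of the transcription initiation machinery 1 was past the fold, that of the Mediator subunit gene Med1, at 0.51. Gtf2h5 and Gtf2h2, of the general factor TFIIH, had 0.46 and -0.32, and the ETS-family factor Gabpa -0.31. The median absolute change of that list was 0.16. Of 40 starts of transcription factors and nuclear receptors, Usf1, an E-box binding factor gene, at 0.52 and Zfp608 at -0.51 were past the fold, and the median was 0.21. In Usf1 the exclusion form was 156 and 213 and the inclusion form 162 and 154.

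Of 7 starts of genes known for alternative promoters 1 was past the fold, that of Shank3, and the median absolute change was 0.16. Ldha, a lactate dehydrogenase gene, had a change of 0.37, the glucocorticoid receptor gene Nr3c1 of 0.32 and the imprinted growth factor gene Igf2 of 0.16. Both forms of Igf2 were lower in set B, with exclusion of 840 and 708 and inclusion of 301 and 227. Among 15 genes matched to the synaptic list by symbol, Shank3 and Syt17 were past the fold in opposite directions. Grinl1a and the scaffold gene Dlg3 had 0.34 and -0.25, with a median of 0.17 for the list. The event of Grinl1a was dim, with a lowest intensity of 92. RefSeq now names Grinl1a as Polr2m, so its place in the list rests on the older symbol. Among 6 ion channel genes Kcnab3 was past the fold. Kcnj15, Cacnb1 and Kcne3 had changes of -0.48, 0.45 and 0.33, and the list had a median of 0.39. The events of Kcnj15 and Kcne3 were dim, with lowest intensities of 74 and 70.

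Kinase and small GTPase genes had 2 of 25 starts past the fold, Dyrk1b and Srpk2, both with relatively more exclusion in set B. The small GTPase regulators Arhgap1 and Arhgdib had 0.49 and 0.47, and the median was 0.17. The event of Arhgdib was dim, with a lowest intensity of 66. Of 9 starts of cytosolic ribosome and translation genes, Rps19 at 0.52 was past the fold, with Rpl13a at -0.46 and Rps18 at 0.41, while the median was 0.08. None of 14 metabolic enzyme starts, 20 solute carrier starts, 5 starts of RNA splicing and export genes or 4 of mitochondrial ribosome and respiration genes was past the fold, with medians of 0.15, 0.14, 0.17 and 0.30. The largest among them were Me3, Slc35c1 at -0.48, Hnrnph1 at -0.38 and Mrps10 at -0.48. The myelin gene Cnp had a change of -0.003, and no gene of immature neurons had a short-span start.

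**Figure D5:**
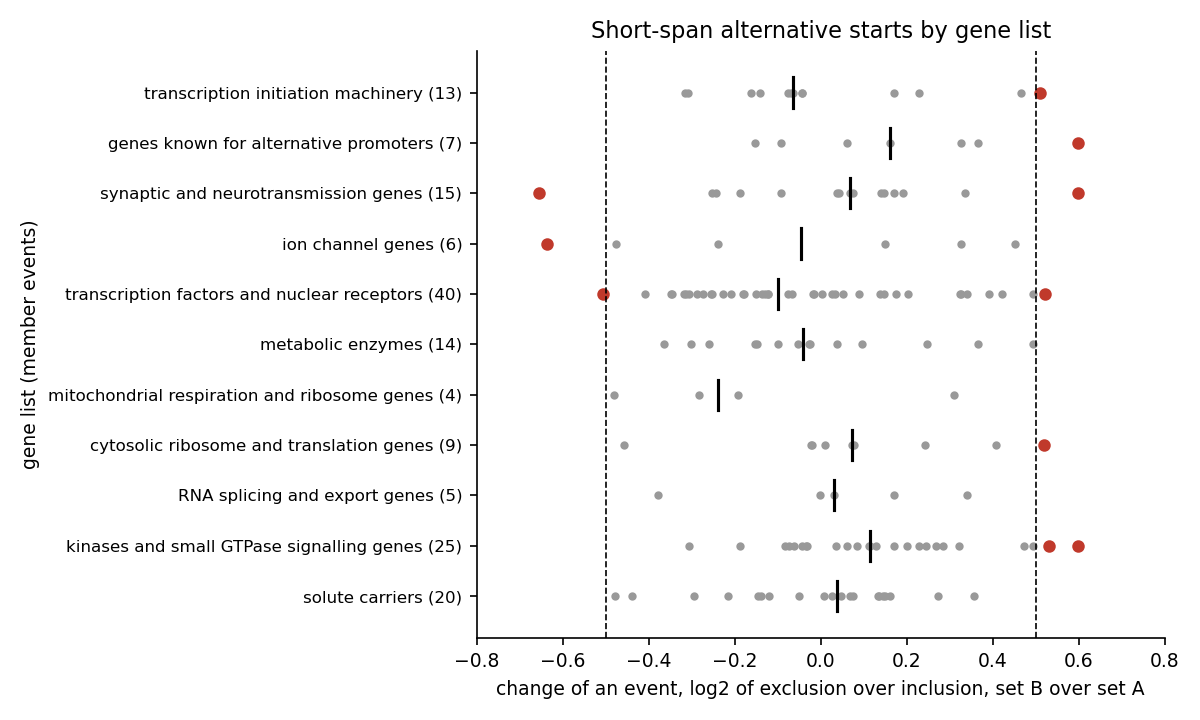
Change of each short-span start (points) on the log2 scale by gene list, for lists with at least 4 events, with the median of each list as a black bar, the number of events in brackets and dashed lines at the fold of 0.5. Red points are past the fold, such as Syt17 at -0.66 and Shank3 at 0.60 in the synaptic list.

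In 19 genes 2 short-span events had values, and in 11 of these both changes had the same sign. Cit, a serine/threonine kinase gene, had 0.37 and 0.46, Speg, a muscle kinase gene, 0.31 and 0.36, and Bscl2 0.25 and 0.49. The changes had opposite signs in the synaptic organizer gene Cbln2, at -0.16 and 0.39. Such events share exons and transcripts and are not independent. On the chromosomes the share past the fold ranged from 0.0% of 23 events on chromosome 13 to 12.5% of 32 (4 events) on chromosome 19, beside 6.34% and 7.75% of all events on these chromosomes. None of those 4 lay between the bounds taken here for the congenic interval.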

How the data were processed

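The authors deposited pooled exclusion and inclusion intensities, as whole numbers on a linear scale, for a set A and a set B and each path of an event, in a paired and a standard listing. These listings held the same values in all 26304 paths that had both. Affymetrix Power Tools is named in the submitters' processing notes, and the normalization, the background correction and the genome build of the positions are not given in the sources used here. The deposited table also holds the authors' own separation scores and q-values, which were not used. Depth has no meaning for arrays, and their number limits the precision.

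Here the paths were joined by event name, and log2 ratios of set B over set A were computed from the paired listing in Python 3.11.15 (pandas 2.3.3, numpy 2.4.6, scipy 1.17.1; figures by matplotlib 3.10.9). All 952 events had 2 paths with the same 4 intensities mirrored, so that each was counted once. An event was dim when any intensity was below 102. Without values per animal no test was made and no replicate error is known. Events, gene lists and compared types were chosen with earlier results of these data known. Named are the 10 highest and 10 lowest changes among events past the fold that were not dim, the 3 largest dim changes, all events in the congenic interval, events assayed on gels or in genes with an assayed IAP, the 3 on each side of the span limit, genes with 2 events, up to 4 per gene list, and the 5 largest opposite movements. The calculation was checked on simulated intensities. Alternatives were other folds, an intensity offset, centring, filters on dim events and on the interval, other span limits, genes in place of events, other path choices and the standard listing. RefSeq promoters (GRCm38.p6) were matched by symbol, 89 of them through an older one, and often list several starts for a gene. Of 764 genes compared, only 6.81% of the array positions overlapped the gene in that build, so no coordinates were joined. In 3 events the symbol reads as a date, and 53 events carry transcript names in place of symbols. Some items that the naming rule covers are not reported here.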

Additional observations from a re-analysis of the deposited data

How the results depend on the processing

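No paired analysis was possible because the table holds pooled values of each set, and for the same reason no animal could be left out in turn. Of 63 comparisons with an alternative, 48 stayed within the interval or the 1.5 times given for the value and 15 did not. Some of the 63 could hardly differ, since the paths of every short-span start are mirrored and both listings hold the same values. Another fold likewise cannot alter a median absolute change. The count of 48 is therefore not a measure of stability. A fold of 1.5 gave 2.52% of short-span starts past it (24 events, against 3.78% of all events), a log2 change of 1 gave 0.105% (1 event, Rnf11, so that 0.0% of the calls were higher), and an offset of 50 on the intensities gave 2.42% (23 events, against 3.18% of all). The share of calls with relatively more exclusion in set B was 59.6%, and 40.4% after centring. With the offset the median absolute change was 0.15, opposite movements 1.37%, shared movements 8.09%, the share past the fold 4.05%, 2.0% and 1.86% in the 3 classes of span, and the events past the fold in gene lists 4 in place of 9. A movement counted from 0.3 left 0.21% opposite and 3.57% shared. The median movement of both forms, whose alternatives were chosen after seeing the data, was 0.066 with the offset and between 0.08 and 0.09 in the other 7. The cause was not tested. Of 70 named events, 11 were no longer past the fold with the offset, Plekhg4, 4930481F22Rik, Rnf181, Plagl2, Spink10, Glt8d1, Zfp608 and the 4 that centring also took below it, Srpk2, Med1, Usf1 and Rps19. After centring, Kcnj15, Mrps10 and Slc35c1 were newly past it. No named event past the fold changed sign, and after centring the small values of 2700081O15Rik (0.02 to -0.013) and Hnrnpk (0.03 to -0.003) did. With the pooled values of 6 arrays alone, no change of a single event, bright or dim, can be told from noise here. The paper's own calls of single events rest on false discovery rates, which were not used.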

Other observations

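Other events of the same genes were outside the choice of short-span starts. The 57 genes with a start past the fold had 44 other events in 27 genes, of which 5 (11.4%) were past the fold, against 57 of 780 (7.31%) in the genes whose short-span starts were all within it. The 5 were a complex event of Ciz1 at -0.77, cassette exons of Glt8d1 at -0.69 and Phka2 at 0.57, an alternative end of 4930481F22Rik at 0.59 and a complex event of 6330416G13Rik at 0.59. The Ciz1 event, with exclusion of 1229 and 1112 and inclusion of 307 and 473 in sets A and B, overlaps the start event by position, and so does that of Glt8d1, so that these may share probes. The 11.4% thus rests in part on events that may not be separate from the starts. The cassette of Phka2 lies at 157028280 to 157036420 on chromosome X, away from the start event at 156940097 to 156940678. Exclusion has no common meaning across event types, so the signs were not compared.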
